A study of Mus musculus with 4 samples.

Results

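Gene expression was compared between 2 injured mouse kidneys, 1 of a mouse lacking Nlrc5 (NLRC5-/-) and 1 of a wild type mouse, each measured on 1 one-colour Agilent array. These are 2 of the 4 samples of the study. The wild type sham array served as the reference for direction, and the knockout sham array is shown beside it for some genes and lists. All mice were C57BL/6, 8 weeks old, and the injured ones had both kidneys made ischemic for 30 min and then reperfused. The reperfusion time is 48 h in the titles and the design but 24 h in the sample descriptions, and the conflict could not be settled. Genes were taken by rule: a gene entered if either injured array read its probe as well above background, which held for 16189 of the 20073 genes named on the array. Of these, 14804 were above background on both arrays, 1147 on the knockout array alone and 238 on the wild type array alone.

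Ischemia followed by reperfusion injures above all the proximal tubule, the segment that reclaims glucose, phosphate, amino acids and filtered protein. Surviving tubule cells lose transporters, express keratins, annexins and the receptor encoded by Havcr1, and re-enter the cell cycle. Leukocytes enter the tissue and capillaries are lost. NLRC5 is a member of the NOD-like receptor family and is best known as a transactivator of MHC class I genes, as CIITA is for MHC class II genes.

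With 1 array a group there was no replicate error, and no p-value was computed. Levels are log2 of the processed spot signal minus the 75th percentile of the array, and differences are knockout injured minus wild type injured, so 1 unit is 2-fold. Repeated spots of 171 probes above background on both injured arrays gave differences with an SD of 0.152. This is spot noise within that pair of arrays. It leaves out whatever all spots of an array share, and the spread between animals. The 75th percentile itself was lowest on the wild type injured array, 176.6 against 352.6 on the knockout injured array and 445.9 on the wild type sham array, and 67.2% and 73.1% of probes on the injured arrays were well above background. Both wild type arrays were on 1 slide and both knockout arrays on another, each slide with its own scan, so slide and genotype cannot be told apart. RNA came from kidney tissue, so fewer cells of a type and less RNA per cell cannot be told apart either. The Y-linked gene Ddx3y read 1.44 on the wild type sham, 0.88 on the wild type injured and 0.96 on the knockout injured array. On the knockout sham array it read -7.67. The sex chromosome genes of that array had a female pattern, which is why wild type sham is the reference. Sex and genotype therefore cannot be told apart between the sham arrays.

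The probe for Nlrc5 (A_52_P382107) read -3.30 on the wild type injured array and -3.58 on the knockout injured array, well above background on both. The sham levels were -4.05 for wild type and -3.73 for knockout. The difference of -0.28 became 0.42 with another background correction (normexp, described with the processing), so its direction is not settled. Normexp lifted dim genes in general. The dimmest of 3 equal classes by signal had a median of 0.67 with it, before the all-gene shift of 0.177 was removed. The deleted part of the gene is not given in the sources used here, and a probe outside it would check nothing. "Knockout" below means the array labelled so. Genes within 10 Mb of Nlrc5 on chromosome 8 numbered 129, of which 11 were 2-fold higher and 12 were 2-fold lower. That is 17.8%, near the 16.6% of all genes that differed by 2-fold in either direction.

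Over all 16189 genes, 1408 (8.70%) were higher in the injured knockout by 2-fold or more and 1274 (7.87%) were lower, around a median difference of 0.005. The list counts below are to be read against these shares. The plot of levels on the injured arrays shows both tails. Genes of the proximal tubule lay above the diagonal, tubular injury genes lay below it, and interferon-stimulated genes lay above it. Dim genes differed more often. Among the dimmest of 3 equal classes by signal 10.9% were higher and 9.80% lower, and among the brightest 6.45% and 6.73%. With normexp the counts were 574 higher and 729 lower, so which direction held more genes depended on the background correction.

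**Figure D1:**
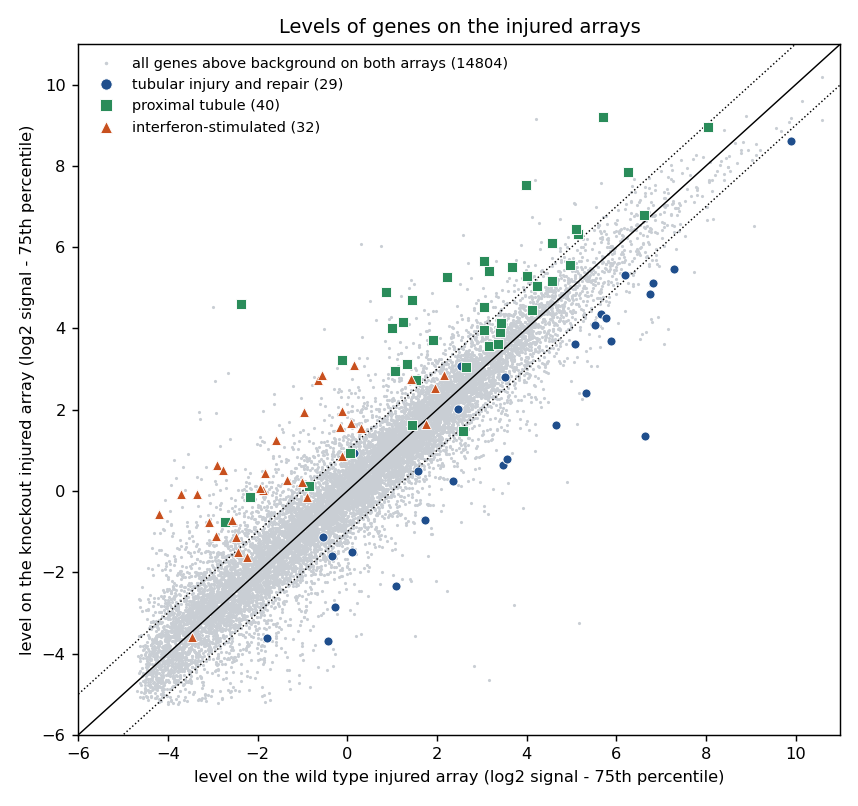
Level of each gene on the wild type injured (x) and knockout injured (y) arrays, in log2 signal minus the 75th percentile of the array, for 14804 genes above background on both. The solid line marks equal levels and the dotted lines a 2-fold difference; most tubular injury genes (29, circles) lie below the lower dotted line and many of the proximal tubule (40, squares) and interferon-stimulated (32, triangles) genes above the upper one.

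Among the genes furthest apart were transporters and enzymes of the tubule. Slc34a3, a sodium-phosphate cotransporter of the proximal tubule brush border, read 4.91 in wild type sham, -2.37 in the injured wild type and 4.61 in the injured knockout. It was 126-fold higher in the injured knockout, and its level there was close to that of wild type sham. Cyp2d26, a cytochrome P450, read 6.67, 0.75 and 6.04 on the same arrays. Mep1b, the beta subunit of the brush border protease meprin, read 2.38, -3.29 and 1.78. Fam151a, Gys2 (a glycogen synthase), Slc22a22 (a prostaglandin transporter), Xpnpep2 (an aminopeptidase), Clec2h and the amino acid transporter Slc7a12 had the same shape. Each was within 1.2 units of wild type sham in the injured knockout and 4.24 to 5.66 lower in the injured wild type. Egf, made by the thick ascending limb and distal tubule, read 5.72, -0.52 and 3.98, a difference of 4.50.

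A few of the highest genes did not follow that shape. Syt10, a calcium sensor of the synaptotagmin family, and Abhd1, an alpha/beta hydrolase, were high on both knockout arrays. Syt10 read 3.76 in knockout sham and 4.52 in the injured knockout, against -1.03 and -3.00 in wild type. Abhd1 read 4.44 and 4.03 against 0.61 and 1.03, and its second probe differed by 2.58 between the injured arrays. Grn, the gene of the secreted protein progranulin, differed by 4.94 by its brightest probe and by -0.42 by the other, so no direction is given for it.

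At the other end stood genes that were high on the wild type injured array. Crct1, of the epidermal differentiation cluster, read 3.15 there and -4.66 in the injured knockout, 225-fold lower, and was not well above background in either sham kidney. Sprr2f, a small proline-rich protein of cornified epithelia, read 3.73 and -2.80. Krt20, a keratin, read -0.99 in wild type sham, 6.65 in the injured wild type and 1.35 in the injured knockout. The protease inhibitor Slpi differed by -4.69, the carbonyl reductase Cbr3 by -4.34, the lipoprotein lipase cofactor Apoc2 by -3.70 and the AP-1 subunit Fosl1 by -3.76. Cbr3 shows the contrast best: it read -0.66 in wild type sham, 3.92 in the injured wild type and -0.42 in the injured knockout. Apobec2, of the cytidine deaminase family, differed in another way, since its knockout level of -3.57 lay below wild type sham at 0.68 too.

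**Figure D2:**
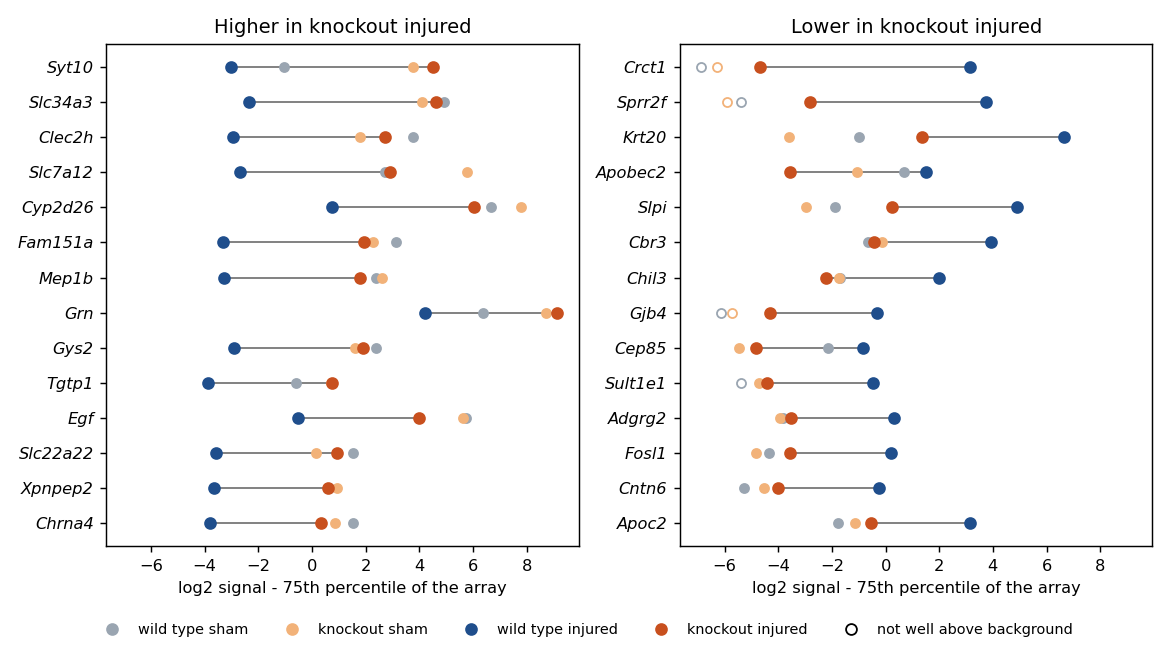
Levels on the 4 arrays (x, log2 signal minus the 75th percentile of the array) of genes taken from the 15 highest and 15 lowest among those above background on both injured arrays; 1 of each is not shown. A line joins the injured arrays of each gene and open circles were not well above background; Slc34a3, Cyp2d26 and Mep1b are examples whose injured knockout level lies near wild type sham, and Crct1, Sprr2f and Krt20 ones whose injured wild type level lies far above both sham levels.

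Where a gene was above background on 1 injured array alone, the difference is a bound. Such a gene could not be lower on that array, in this paragraph or in the lists below. Slc22a29, of the organic anion transporter family, was at least 47.0-fold higher in the injured knockout and the chemokine gene Ccl12 at least 45.6-fold. The potassium channel gene Kcnh2 was at least 26.0-fold higher, and Jchain, the joining chain of polymeric antibodies, at least 11.7-fold. In the other direction Septin1 was at least 35.2-fold lower, Fhad1 at least 29.3-fold and the inflammasome receptor gene Nlrc4 at least 13.3-fold. These dim genes were the most exposed to the background correction: with normexp the 6 largest higher bounds became 1.22 to 2.37 and the 6 largest lower bounds -0.26 to -1.24.

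Tubular injury and repair genes were lower in the injured knockout. Of 29 measured, 23 were 2-fold lower and 0 were 2-fold higher, with a median of -1.72 against 0.005 for all genes. Relative to wild type sham the list stood at a median of 2.45 in the injured wild type and 0.74 in the injured knockout. These comparisons share arrays, so the values are set side by side only. Havcr1, which encodes the phosphatidylserine receptor KIM-1, read 0.38, 3.46 and 0.63 in wild type sham, wild type injured and knockout injured. Its second probe read -2.53, 3.67 and 0.89, so the probes gave nearly the same difference between the injured arrays, -2.83 and -2.78, but not the same distance from wild type sham. Knockout sham, the array with the female pattern, read -4.91 and -4.58 on them. Lcn2, the lipocalin used as an injury marker in urine, read -1.89, 4.65 and 1.63, so its knockout level lay between the others.

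The list held several functional classes. Among keratin genes, Krt20 stood at -5.30, Krt19 at -2.45, Krt18 at -2.18 and Krt8 at -1.90. Sox9, a transcription factor of repairing tubule cells, stood at -3.43 by its brightest probe and -3.44 by the second. One more probe, not well above background in the injured knockout, gave a bound of -1.70. The membrane-binding annexins Anxa3 and Anxa2 stood at -2.92 and -2.78, and the second Anxa2 probe at -2.91. The chaperone Clu read 3.77 in wild type sham, 7.28 in the injured wild type and 5.46 in the injured knockout, and osteopontin (Spp1) 6.28, 9.90 and 8.60. These last genes thus stayed above wild type sham by over 1.5 units in the injured knockout as well. The exceptions were Vim (vimentin) at 0.55 and Vcam1 (a leukocyte adhesion receptor) at 0.79, both within 2-fold. With normexp the list's median was -2.001, with 20 genes 2-fold lower and 0 higher.

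Stress-response genes were lower too. Of 21 immediate early and AP-1 genes, 12 were 2-fold lower and 0 higher, with a median of -1.26. Egr1, a growth-factor-induced zinc finger factor, read -1.20 in wild type sham, 2.09 in the injured wild type and 0.04 in the injured knockout. Myc read -1.31, 1.54 and -0.21, and Junb 2.58, 4.87 and 3.61. Dusp1 and Klf2, of the same list, were within 0.11 of equal. Fos stood at -2.02, from a low level of -1.67 and -3.69.

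Of 21 p53 target and arrest genes, 8 were 2-fold lower and 0 higher, with a median of -0.70. The largest was Cdkn1a, which encodes the cyclin-dependent kinase inhibitor p21. It read -1.44 in wild type sham, 1.90 in the injured wild type and -1.06 in the injured knockout, a difference of -2.96. Plk3, Btg2 and Gadd45a, which respond to DNA damage and other stress, stood at -2.01, -1.83 and -1.63. Mdm2, Bax and Bbc3, other textbook p53 targets, stood at -0.52, -0.36 and -0.38, within 2-fold. Sesn1 and Fas were above 0, at 0.73 and 0.80.

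The antioxidant list, most of it targets of the transcription factor NRF2, had a median of -1.21, with 13 of 23 genes 2-fold lower and 0 higher. Hmox1 (heme oxygenase) read 1.16, 4.21 and 1.39 in wild type sham, wild type injured and knockout injured, and Nqo1 (a quinone reductase) read 0.86, 3.67 and 0.93. On these genes the injured knockout and wild type sham nearly coincided. Srxn1, sulfiredoxin, had 3 probes at -2.50, -2.56 and -2.45. The glutathione transferase Gsta1 stood at -3.17 and the metallothioneins Mt2 and Mt1 at -2.54 and -2.35. Catalase (Cat, -0.14), Gpx3 (-0.26) and Gstm1 (-0.24) did not take part. Mitochondrial superoxide dismutase, Sod2, ran the other way within 2-fold, at 0.94. Of 20 heat shock and unfolded protein genes 1 was 2-fold lower (Hspb1, -1.85), and their median was -0.40.

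**Figure D3:**
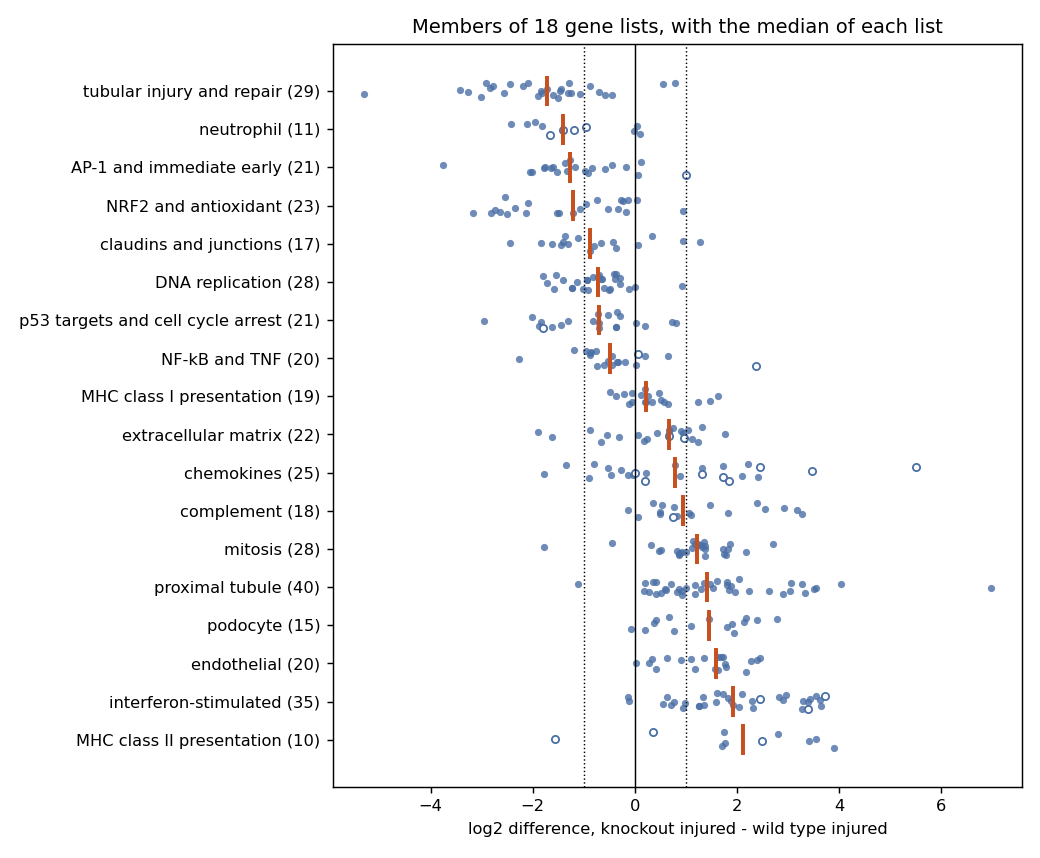
Difference of each member (x, log2 knockout injured minus wild type injured) in selected gene lists, with the number measured in brackets. Orange bars are list medians, dotted lines mark 2-fold and open circles are bounds from genes above background on 1 array; medians run from -1.72 for tubular injury to 2.13 for MHC class II genes.

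Cell cycle genes split by phase. Of 28 DNA replication genes, 27 lay below 0, with a median of -0.72, and 9 were 2-fold lower and 0 higher. Of 28 mitosis genes, 26 lay above 0, with a median of 1.21, and 17 were 2-fold higher and 1 lower. Against wild type sham, both lists were up in both injured kidneys, but in opposite order. Replication genes stood at a median of 2.05 in the injured wild type and 1.25 in the injured knockout, and mitosis genes at 1.79 and 2.96.

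Among replication genes the G1/S cyclin Ccne1 read -1.74 in wild type sham, 2.04 in the injured wild type and 0.32 in the injured knockout. The helicase subunit Mcm4 read 0.66, 3.03 and 1.47, the histone chaperone subunit Chaf1b -1.26, 2.78 and 1.55, and the ribonucleotide reductase subunit Rrm2 -2.25, 1.43 and 0.20. Uhrf1, which carries DNA methylation through replication, had the largest difference at -1.80. The other MCM helicase subunits stood between -1.03 (Mcm5) and -0.29 (Mcm7), and the sliding clamp Pcna at -0.92.

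Among mitosis genes the cyclin Ccnb2 read -0.20 in wild type sham, 0.37 in the injured wild type and 3.08 in the injured knockout. Cdc20, an activator of the anaphase-promoting complex, read -0.35, 1.46 and 3.64, and the kinase Plk1 -0.46, 1.30 and 3.17. Ube2c, the ubiquitin-conjugating enzyme of the same complex, stood at 1.83, the centromere histone Cenpa at 1.78 and the proliferation marker Mki67 at 1.18. Cdk1 was higher by less than 2-fold (0.52), and Ccnb1 stood at 0.82 by its brightest probe and at 1.99 and 1.57 by others. The exceptions below 0 were the kinetochore genes Ndc80 at -1.78 and Cenph at -0.45. With normexp the medians were -0.78 for replication and 0.68 for mitosis, so the signs held, but the count of mitosis genes at 2-fold dropped from 17 to 5. Under that correction 22 of 28 replication genes lay below 0 and 25 of 28 mitosis genes above 0, and Cdc45, a dim replication gene at -1.58, turned to 0.42.

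**Figure D4:**
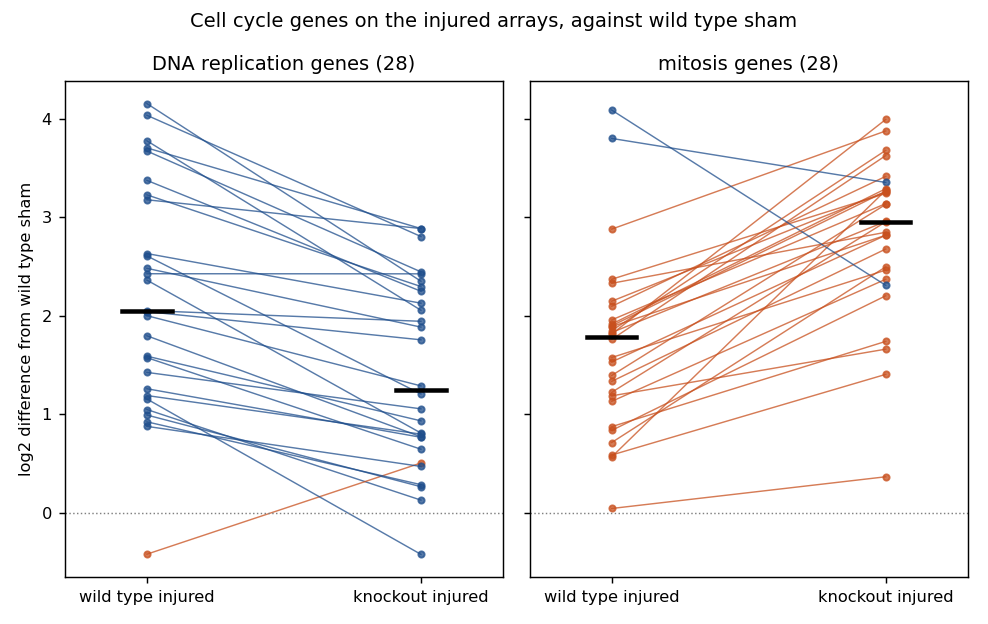
Log2 difference from wild type sham (y) of 28 DNA replication genes (left) and 28 mitosis genes (right) in the wild type injured and knockout injured kidneys. Each line is a gene, blue where knockout injured is lower and orange where it is higher, and black bars are medians; replication medians go from 2.05 to 1.25 and mitosis medians from 1.79 to 2.96.

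Proximal tubule genes were higher in the injured knockout. Of 40 measured, 24 were 2-fold higher and 1 was 2-fold lower, with a median of 1.41, and the list stood at -1.89 in the injured wild type and -0.50 in the injured knockout relative to wild type sham. Slc34a1, the main phosphate cotransporter of this segment, read 7.86 in wild type sham, 3.99 in the injured wild type and 7.54 in the injured knockout. Miox, which oxidises myo-inositol, read 9.16, 5.70 and 9.20. The glucose cotransporter Slc5a2 read 5.05, 1.43 and 4.70. In each of these the injured knockout was within 0.36 of wild type sham.

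Other transporters differed less or not at all. The apical amino acid transporter Slc6a19 stood at 2.04, the apical cystine transporter Slc7a9 at 1.81, and the basolateral transporters Slc7a7 and Slc7a8 at 2.63 and 1.80. The endocytic receptor Lrp2 (megalin) stood at 1.19, its co-receptor Cubn at 0.82 and their anchor Amn at 1.47. Organic anion transporters parted: Slc22a8 stood at 1.87 but Slc22a6 at 0.18, with Slc22a6 at 6.43, 6.62 and 6.80 on the wild type sham, wild type injured and knockout injured arrays. Slc13a3, a dicarboxylate transporter, was the 2-fold lower member at -1.12. Of the genes of the straight segment (S3), 4 of 10 were 2-fold higher and 2 lower, but 2 were higher and 3 lower with normexp. Slc7a13 was higher at 3.25 (2.62 by a second probe), and Slc22a7 was lower at -1.18. Slc6a18 stood at -1.10 by its brightest probe but at -0.14 and -0.23 by the others. With normexp the proximal tubule median was 0.96, with 18 genes 2-fold higher and 1 lower.

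Metabolic genes of the tubule differed by pathway. All 8 gluconeogenesis genes lay above 0, with 4 at 2-fold, led by G6pc (glucose-6-phosphatase), which read 5.17 in wild type sham, 1.25 in the injured wild type and 4.15 in the injured knockout. With normexp 6 of the 8 lay above 0 and 1 was 2-fold higher, at a median of 0.41 against 1.05. Creatine synthesis genes were far apart: Gatm, the first enzyme, read 5.60, 0.86 and 4.89, and Gamt, the second, read 2.25, 0.61 and 2.89. The urea-cycle enzymes Ass1 and Asl, which make arginine in kidney, stood at 2.23 and 1.69, while the arginase Arg2 stood at -3.06 and the polyamine enzyme Odc1 at -1.49. Among 25 fatty acid oxidation and peroxisome genes, 2 were 2-fold higher and 4 lower (median -0.25). The share that was higher, 8.00%, was near the 8.70% of all genes, and 16.0% were lower against 7.87%. With normexp 0 were higher and 7 lower (median -0.62). Acadm stood at 1.11, and Acaa1b and Cyp4a14, which belong to peroxisomal and omega oxidation, stood at -1.80 and -1.70. Ppargc1a, the coactivator of mitochondrial biogenesis, stood at 1.14. Of 29 respiratory chain and citrate cycle genes 1 was 2-fold higher and 0 lower, with a median of 0.37 that turned to -0.15 with normexp.

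Phosphate and vitamin D genes separated as well. Besides Slc34a3 and Slc34a1, Kl (klotho, the co-receptor for FGF23) read 5.18, 2.56 and 4.24 in wild type sham, wild type injured and knockout injured. Cyp24a1, which degrades active vitamin D, ran the other way at 2.11, 1.51 and -0.51, so its knockout level lay below wild type sham. Slc20a1, a phosphate transporter of most cell types, stood at -1.06 and -0.33 by its probes. Vdr, the vitamin D receptor, stood at -0.35. In the renin-angiotensin list 4 of 10 genes were 2-fold higher and 0 lower, and with normexp 2 were higher. Agt (angiotensinogen) stood at 2.10. Agtr1a, the main angiotensin receptor, stood at 1.67 and 0.58 by its probes. Ren1 (renin) stood at 1.58 by its brightest probe and -0.41 by the other, so no direction is given for it.

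Further along the nephron the differences were smaller. In the thick ascending limb 5 of 15 genes were 2-fold higher and 0 lower (median 0.53), and with normexp 2 were higher and 0 lower. Slc12a1, the target of loop diuretics, read 4.82 in wild type sham, 1.77 in the injured wild type and 3.72 in the injured knockout, while Umod (uromodulin) read 8.12, 7.46 and 7.82. In the distal convoluted and connecting tubule 6 of 13 were 2-fold higher and 0 lower (median 0.81), among them Klhl3 at 2.18 and Slc12a3, the thiazide-sensitive cotransporter, at 1.20. With normexp 2 were higher and 1 lower (median 0.35). Collecting duct genes stood near or below 0: 1 of 11 principal cell genes was 2-fold higher and 2 lower (median -0.47), and 1 of 14 intercalated cell genes each way (median -0.002, with 0 higher and 3 lower with normexp). The intercalated cell share, 7.14% each way, was near the 8.70% higher and 7.87% lower of all genes. The higher principal cell gene was the water channel Aqp4, whose probes stood at 1.83, -1.80 and 1.64, so its direction depends on the probe. Aqp2, the water channel regulated by vasopressin, read 2.89, 1.82 and 1.55. Hsd11b2, a principal cell gene of low signal at -1.31, turned to 0.21 with normexp. Junction genes were lower, with 8 of 17 2-fold lower and 1 higher: the claudins Cldn7 and Cldn3 stood at -1.84 and -1.45 and E-cadherin (Cdh1) at -1.40, while Cldn10, a cation and anion pore of the tubule, stood at 1.28. With normexp 5 junction genes were lower and 0 higher.

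Interferon-stimulated genes were higher in the injured knockout. Of 35 measured, 27 were 2-fold higher and 0 lower, with a median of 1.92, and 33 lay above 0. Of the 35, 3 entered through the injured knockout array alone and could only be higher. The list stood at -0.56 in the injured wild type and 1.51 in the injured knockout relative to wild type sham. The knockout sham array, which also differs from wild type sham in its sex pattern, stood above it at a median of 1.12. Ifit1, which binds foreign RNA, read -1.58 in wild type sham, -2.90 in the injured wild type and 0.64 in the injured knockout. Isg15, a ubiquitin-like modifier, read -1.86, -2.78 and 0.52, and Igtp, an immunity-related GTPase, 1.53, 0.15 and 3.101. Ifi27l2a had 3 probes at 4.15, 4.02 and 3.93. For these genes the wild type injured array was the lowest of the 4.

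Members of the list did not differ equally. The largest difference was that of Usp18, which damps the receptor, a bound of 3.73 (at least 13.2-fold). Oas2 stood at 3.65, Zbp1 at 3.62, Ifit3 at 3.38 and Rsad2 at 3.28. Other members stood lower, with Gbp2 at 1.61, Bst2 at 1.59, Irgm1 at 1.33 and Ifit2 at 0.945. Among the transcription factors Irf7 stood at 1.83, Stat2 at 1.25, Irf9 at 0.97 and Irf1 at 0.70. Of the RNA sensors, Dhx58 stood at 1.35, Ifih1 at 0.76 and Ddx58 at -0.11. The interferon-induced chemokines parted, with Cxcl10 at 2.10 and Cxcl11 at -0.14. With normexp the list's median was 0.94, with 15 genes 2-fold higher and 0 lower, so the size of the difference depended on the background correction.

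Promoters of these genes are known for the interferon-stimulated response element, and stretches that hold its core are shown for some of the genes named above. The motif GAAANNGAA was searched on both strands in the 250 bases before each RefSeq start (GRCm38.p6), counting overlapping matches. It was present in 15 of 26 interferon-stimulated genes with a promoter in the table (57.7%), against 2211 of 27025 genes overall (8.18%). A match is a description of the letters and not a measured site. Below, capitals mark matches, read as the motif or as its reverse complement, and each stretch runs 5′ to 3′ on the strand of its gene.
Ifit1: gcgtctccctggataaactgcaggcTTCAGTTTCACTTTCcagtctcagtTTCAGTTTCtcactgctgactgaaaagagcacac
Ifit3: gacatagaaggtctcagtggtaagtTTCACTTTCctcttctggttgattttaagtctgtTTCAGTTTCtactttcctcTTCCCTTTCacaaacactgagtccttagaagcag
Isg15: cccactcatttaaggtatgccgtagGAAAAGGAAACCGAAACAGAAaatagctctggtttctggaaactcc
Igtp: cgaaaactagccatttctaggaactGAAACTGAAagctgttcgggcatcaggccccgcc
Rsad2: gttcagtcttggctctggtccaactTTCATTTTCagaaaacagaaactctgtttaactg
Cxcl10: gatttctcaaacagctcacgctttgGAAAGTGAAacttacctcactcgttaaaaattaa
Stat2: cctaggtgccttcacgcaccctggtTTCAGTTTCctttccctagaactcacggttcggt
These stretches lie at chr19:34640755-34640838 (Ifit1, plus strand), chr19:34583349-34583460 (Ifit3, plus), chr4:156200851-156200921 (Isg15, minus), chr11:58199497-58199555 (Igtp, plus), chr12:26456538-26456596 (Rsad2, minus), chr5:92349069-92349127 (Cxcl10, minus) and chr10:128270252-128270310 (Stat2, plus). Among measured genes with a match, the difference ran from 0.76 for Ifih1 to 3.54 for Ifit1.

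Antigen presentation genes differed by class. MHC class II genes were higher in the injured knockout, with 8 of 10 measured genes 2-fold higher, 1 lower and a median of 2.13. H2-Aa (2.49 or more) and H2-Oa (0.36 or more) entered through the injured knockout array alone and could only be higher. H2-Ab1 read 2.48 in wild type sham, -0.80 in the injured wild type and 2.60 in the injured knockout, and the invariant chain Cd74 read 2.75, -0.75 and 2.80. The injured knockout coincided with wild type sham on both. Ciita, the class II transactivator, read -1.57, -2.71 and 0.08, above wild type sham in the injured knockout. H2-Ob, part of the peptide-exchange inhibitor DO, was lower as a bound (-1.56) and not well above background in the injured knockout. With normexp the list's median was 1.22, with 7 genes 2-fold higher and 0 lower.

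MHC class I genes, which include the known targets of NLRC5, mostly lay within 2-fold. Of 19, 3 were 2-fold higher and 0 lower, and the median of 0.21 turned to -0.13 with normexp. The heavy chain H2-K1 read 4.99 in wild type sham, 4.45 in the injured wild type and 5.01 in the injured knockout, and its probes differed by 0.56, 0.54, -0.34 and -0.51. H2-D1 read 2.65, 2.15 and 2.09. The light chain B2m read 4.96, 3.29 and 4.53. The immunoproteasome subunits Psmb9 and Psmb8 stood at 1.63 and 1.48 but Psmb10 at 0.19. The peptide transporter subunits Tap1 and Tap2 stood at -0.20 and 0.48. Ceacam1, the adhesion receptor in the title of the series, read 3.57, 2.34 and 4.03 by its brightest probe, a difference of 1.69, and 0.40 by a second probe.

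Within the NOD-like receptor and inflammasome list, 6 of 20 genes were 2-fold higher and 2 lower. Nlrp6 was higher by both of its probes, 3.44 and 4.24, and read 3.12 in wild type sham, 0.34 in the injured wild type and 3.78 in the injured knockout by the brighter one. Nod2, a sensor of bacterial muramyl dipeptide, stood at 2.34, and Casp4, Gsdmd and Casp1, which execute pyroptosis, stood at 1.32, 1.19 and 1.18. Nlrp3 read -1.98, -1.81 and -1.73 and Il1b -3.32, -3.54 and -3.42, with differences of 0.07 and 0.12. Nlrc4 and Naip1, a receptor and its ligand sensor, were the lower members, both not well above background in the injured knockout. With normexp 1 gene of the list, Nlrp6 at 2.77, was 2-fold higher and 0 were lower.

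**Figure D5:**
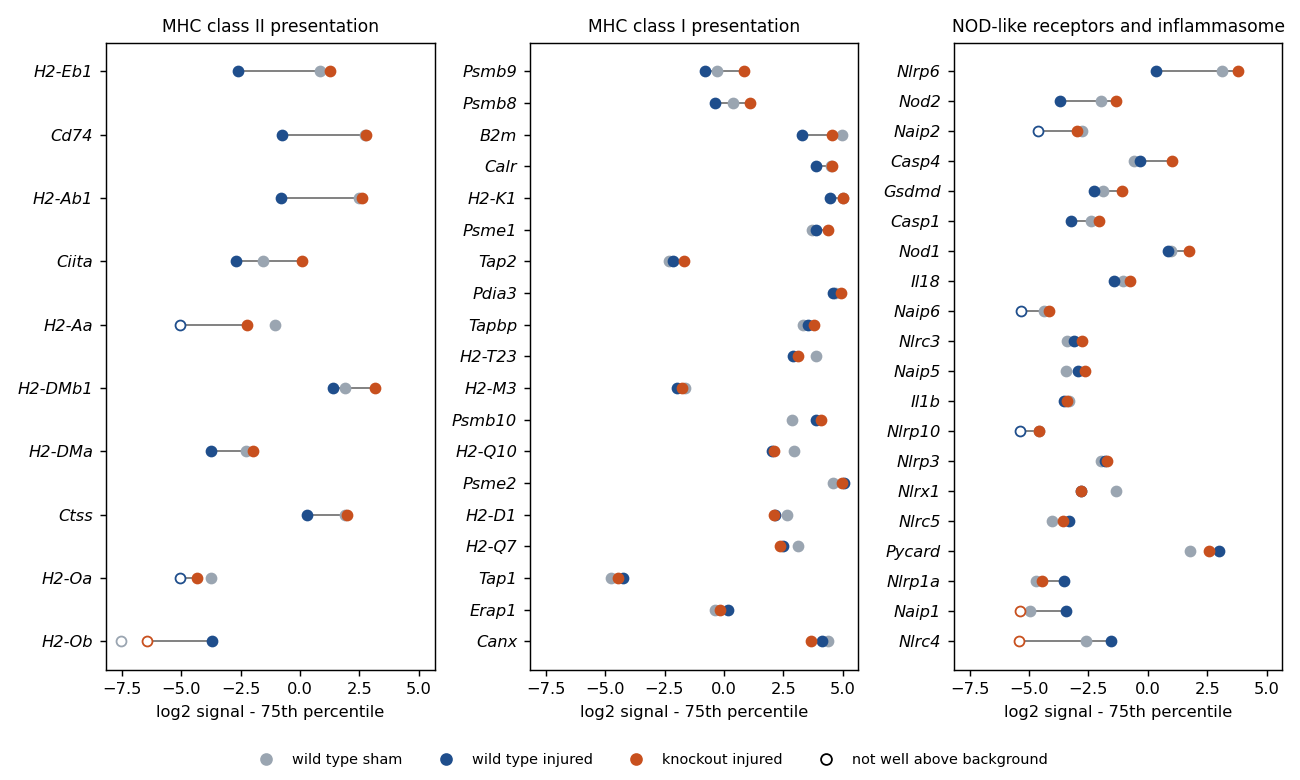
Levels (x, log2 signal minus the 75th percentile of the array) of MHC class II, MHC class I and NOD-like receptor genes in wild type sham, wild type injured and knockout injured kidneys, ordered by the difference between the injured arrays. Open circles were not well above background; most class II genes of the injured wild type lie below both other arrays, while 16 of 19 class I genes lie within 2-fold between the injured arrays.

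Chemokine genes lay on both sides of 0. Of 25, 11 were 2-fold higher and 2 lower, with a median of 0.79. The share that was lower, 8.00%, was near the 7.87% of all genes. The monocyte attractants Ccl12, Ccl7 and Ccl2 were higher: Ccl12 at 5.51 or more, Ccl7 at 1.84 or more, and Ccl2 at 1.73, with levels of -2.52, -2.14 and -0.41 in wild type sham, wild type injured and knockout injured. The T cell attractants Ccl5 and Cxcl9 stood at 2.41 and at 2.46 or more, and the macrophage inflammatory protein gene Ccl4 at 3.46 or more. The neutrophil attractant Cxcl1 ran the other way, at -2.54, 1.92 and 0.57. Ccl6 stood at -1.78. Of the 25, 8 entered through the injured knockout array alone and could only be higher, among them Ccl3, Ccl4, Ccl7, Ccl8, Ccl12 and Cxcl9, whose values are bounds. With normexp 5 chemokine genes were 2-fold higher and 1 lower.

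Complement genes were higher, with 9 of 18 2-fold higher, 0 lower and a median of 0.94. With normexp 5 were higher and 0 lower, at a median of 0.66. C1qa and C1qc, subunits of the initiating complex made by macrophages, stood at 3.28 and 3.17, while the probe for their partner C1qb stood at 0.48. The terminal component C7 read -2.13 in wild type sham, -3.00 in the injured wild type and -0.08 in the injured knockout, so it was highest in the injured knockout. C4b and the regulator Cfi stood at 2.55 and 2.40. The central component C3 read 4.27, 5.20 and 5.25, a difference of 0.05. NF-kB and TNF pathway genes lay mostly below 0 (15 of 20), with 2 2-fold lower, the TWEAK receptor Tnfrsf12a (-2.27) and Tnfaip3 (-1.20), and 1 higher as a bound, Ltb (2.38). With normexp 5 were lower and 0 higher. The interleukin-6 family list had 1 of 14 genes at 2-fold, the receptor gene Lifr. Its brightest probe stood at -3.39, while the others stood at 1.29, 0.46, 0.44 and a bound of 1.03, so no direction is given for it.

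Acute phase genes split as well. Of 11, 6 were 2-fold lower and 1 higher, and the median of -1.05 turned to 0.013 with normexp. The fibrinogen chain gene Fgg read 1.31, 4.18 and 2.58 on the wild type sham, wild type injured and knockout injured arrays. Ceruloplasmin (Cp) stood at -1.05 by its brightest probe and 0.83 by the other. Serum amyloid Saa2 ran the other way, at -5.33, -2.10 and -0.24. The dim Hp (haptoglobin, -2.12) and Saa3 (-1.22) changed sign with normexp, to 0.032 and 0.171. That correction lifted dim genes in general, so these signs are not set against genes of like signal.

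Leukocyte markers differed by cell type. Of 11 neutrophil genes measured, Il1r2, Mmp8, Cxcr2 and Fpr1 entered through the injured wild type array alone, so they could only be lower. Among the other members, S100a8, S100a9, Retnlg and Clec4d were 2-fold lower, and Mpo, Prtn3 and Fpr2 lay within 0.10 of equal. S100a9 read 1.76 in wild type sham, 3.21 in the injured wild type and 1.25 in the injured knockout, and S100a8 0.12, 1.32 and -0.79. Retnlg stood at -2.42, and Clec4d at -1.82. With normexp 2 genes were 2-fold lower, S100a9 at -2.32 and S100a8 at -1.48, while Retnlg stood at -0.75 and Clec4d at -0.04. Ly6g has no named probe here.

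Macrophage genes were mixed, with 9 of 23 2-fold higher and 3 lower (5 and 2 with normexp). Of the 23, 3 entered through the injured knockout array alone and could only be higher. Another 2 entered through the injured wild type array alone and could only be lower. Adgre1 (F4/80) read -1.28 in wild type sham, -4.10 in the injured wild type and -0.97 in the injured knockout, and Fcgr1 stood at 2.21. Csf1r stood at 1.57, 0.49 and 1.165 by its probes. Chil3, a chitinase-like lectin, read -1.68, 1.98 and -2.23, and Cd68 stood at -1.24. Adgre1 was thus lowest and Chil3 highest on the injured wild type array. Dendritic cell genes lay above 0 in 6 of 6, led by Itgax at 2.95. With normexp 5 of 6 lay above 0 and 0 were 2-fold higher, with Itgax at 0.89. Among T and NK cell genes 4 of 14 were 2-fold higher and 0 lower, led by Ccl5, also counted with the chemokines, and Cd8b1 (1.95). Cd8a, counted as higher by a bound of 1.08, had other probes at a bound of 0.30 and at -1.16. No direction is given for it. Of the 14, 6 entered through the injured knockout array alone and could only be higher, and with normexp 1 was 2-fold higher. Cd3e, a subunit of the T cell receptor complex, read -1.18, -1.20 and -0.84. The antibody genes Ighm and Jchain were higher, at 3.105 and at 3.55 or more, while Cd79a, of the B cell receptor, stood at -0.15.

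Endothelial genes were higher in the injured knockout. All 20 lay above 0, 14 of them 2-fold higher, with a median of 1.59, and against wild type sham the list stood at -1.19 in the injured wild type and 0.17 in the injured knockout. Kdr, the VEGF receptor, read 2.21 in wild type sham, 0.05 in the injured wild type and 2.50 in the injured knockout. Plvap, of fenestrated capillaries, read 3.26, 0.92 and 3.30, and Ehd3, of glomerular capillaries, 1.84, -0.21 and 2.06. The ligand gene Vegfa stood at 1.185 by its brightest probe and between 0.33 and 1.37 by the others. The general markers Pecam1 and Nos3 stood at 0.41 and 0.02, well under the median of the list. With normexp all 20 remained above 0, with a median of 0.79 and 8 genes 2-fold higher. Podocyte genes resembled them, with 9 of 15 2-fold higher, 0 lower and a median of 1.46. With normexp 3 were higher and 0 lower, at a median of 0.73. The transcription factor Wt1 read -0.12, -1.69 and 0.11 on the wild type sham, wild type injured and knockout injured arrays, and Tcf21, another, -1.51, -3.42 and -1.49. Ptpro, a podocyte phosphatase, stood at 2.79 by its brightest probe and -0.77 by the other.

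Of 22 extracellular matrix genes 5 were 2-fold higher and 2 lower, with a median of 0.66. With normexp 1 was higher and 3 were lower (median 0.34), so the balance depended on the background correction. Of 11 mesenchyme and smooth muscle genes 4 were higher and 1 lower, and 1 each way with normexp. The collagen Col1a2 stood at 1.12, Col3a1 at 1.75, 0.44 and 0.10 by its probes and Col1a1 at 0.905, -0.12 and -0.015, so these differences depended on the probe. By its brightest probe Col3a1 read 1.01 in wild type sham, 2.87 in the injured wild type and 4.62 in the injured knockout. The proteoglycans parted, with Dcn (decorin) at 3.31 and Bgn (biglycan) at -1.62. Fbln1 (fibulin) stood at 3.19 and 2.59 by its probes and Igfbp5 at 2.75 and 2.61. The smooth muscle genes Tagln and Acta2 stood at -1.25 and -0.54. In the TGF-beta list 5 of 18 genes were 2-fold lower and 0 higher, among them the matricellular genes Ccn1 (-1.84) and Ccn2 (-1.26), the receptor Tgfbr1 (-1.33) and Inhba (-1.32, which turned to 0.40 with normexp). Tgfb1 itself stood at -0.20. Of the EGF receptor ligands, Egf was higher, and Hbegf (-1.37), Tgfa (-1.11, with a bound of 0.55 by another probe) and Areg (-2.19, 0.21 with normexp) lay below 0. The receptor Egfr read 2.44, 2.62 and 2.66 by its brightest probe, and its 6 probes stood between -0.17 and 0.94.

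Other gene lists gave smaller or mixed counts. Of 17 cytochrome P450 genes 9 were 2-fold higher and 2 lower (median 1.10). With normexp 3 were higher and 3 lower (median 0.57). Cyp2d26 was followed by Cyp2j5, an epoxygenase, which read 6.57, 3.87 and 6.05 on the wild type sham, wild type injured and knockout injured arrays. Of 17 amino acid transporters 8 were higher and 2 lower, and Slc38a3, a glutamine transporter used in acid secretion, was lower at -1.75. Among 18 cholesterol synthesis genes 4 were higher and 0 lower, with the demethylase Cyp51 at 1.61. With normexp 0 were 2-fold either way, and the highest stood at 0.74. Of 16 glycolysis genes 4 were lower and 0 higher, and with normexp 6 were lower and 0 higher. Hk2 (hexokinase) stood at -2.38 and the glucose transporter Slc2a1 at -1.50. Pfkp (phosphofructokinase) stood at -1.36, -1.08 and 1.03 by its probes, and Pkm (pyruvate kinase) at -1.01, -0.99 and -0.008, so neither was 2-fold lower by every probe. Hk2 read -2.39, -0.30 and -2.67, so it was high in the injured wild type alone of these arrays. Of 20 cell death genes 4 were lower and 1 higher. Acsl4, which loads membranes with the lipids oxidised in ferroptosis, stood at -2.29, Casp8 at -1.24, the survival gene Bcl2l1 at -1.19 and the necroptosis effector Mlkl at -1.14. Kidney genes known to be higher in males were 2-fold higher in 5 of 12 and lower in 1 (3 each way with normexp), and those higher in females were higher in 2 of 9 and lower in 4.

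Markers of tissues next to the kidney, or carried along in it, also differed. Of 5 fat cell genes 3 were lower and 1 higher (2 and 0 with normexp). Cfd read 4.17 in wild type sham, but -2.94 in knockout sham, -3.96 in the injured wild type and -6.55, not well above background, in the injured knockout, so wild type sham stood apart from the other arrays. The median of the list in knockout sham minus wild type sham was -4.78. Cidec stood at -2.93. Of 5 erythroid genes 1 was lower (Hbb-bt, -1.83) and 1 higher (Slc4a1, 1.35, also made by intercalated cells), the latter within 2-fold with normexp. Upk3a, of the urothelium, read 0.58 in wild type sham and -2.43 in the injured knockout. In the injured wild type it read -5.74, not well above background, so its difference of 2.27 is a bound. Their part in the other differences was not tested.

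Genes with several probes gave a check on the probe. Among 6181 genes with at least 2 probes above background on both injured arrays, 707 were 2-fold apart by the brightest probe. In 595 of these all probes had the same sign, and in 305 all were 2-fold apart. In 16 of the 6181 genes, 2 probes were 2-fold apart in opposite directions. Besides the genes given above, Prodh2 (hydroxyproline dehydrogenase) was higher by both probes, 3.01 and 3.13. Timd2, a relative of Havcr1, was lower by both, -2.54 and -2.83, as were Rprm, a p53-induced arrest gene (-2.79 and -2.52), Sh2d5 (-2.56 and -2.92) and Rhbdl2 (-2.42 and -3.35).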

How the data were processed

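Spot intensity was taken from the deposited scanner output. Agilent Feature Extraction had subtracted background within each array; the file headers give its version as 10.7.3.1, the submitters' processing notes as 9.1. A deposited table of the authors' log2 values for these arrays served as an alternative. How it was normalized across arrays is not given in the sources used here. Control and flagged spots were left out, spots were averaged per probe, and log2 values were set against the 75th percentile of each array. The probe with the highest mean over the 4 arrays stood for a gene. Probes were named through the RefSeq table by accession (27753), symbol (5533) or synonym (460), and 7428 were not matched. A value not well above background was replaced by the lowest signal above background on its array, unless its own was greater, which makes the difference a bound.

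Of the 56 gene lists and the named genes, all were chosen with earlier results of these data known. Named genes were the 15 largest differences and 6 largest bounds each way, the 8 each way on which all probes agreed best, the 4 members of each list furthest each way and a few always given; other list members are given as examples. The other background correction was limma normexp (limma 3.58.1, R 4.3.3, offset 50) without flagged spots, and its values for genes and lists are given after removing the shift of the all-gene median. Code (Python 3.11.15, pandas 2.3.3, numpy 2.4.6) was tested on simulated data. The number of arrays limits the precision. Some genes of these lists are not reported here.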

Additional observations from a re-analysis of the deposited data

How the results depend on the processing

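No paired analysis was possible because each group held 1 array and no result comes from a test. Of 11 alternatives, background correction mattered most. Normexp moved the all-gene median by 0.179 on all spots and 0.177 without flagged spots; the values of lists and genes below have that shift removed, and are given for all spots first and without flagged spots second. It lifted dim genes and lowered bright ones, with uncorrected medians of 0.67 among the dimmest of 3 signal classes and -0.28 among the brightest. Counts became 654 and 574 higher, and 763 and 729 lower. Medians became -1.999 and -2.001 for tubular injury, 0.668 and 0.683 for mitosis, 0.943 and 0.937 for interferon-stimulated, 1.19 and 1.22 for MHC class II, 0.934 and 0.963 for proximal tubule and 0.777 and 0.789 for endothelial genes. The acute phase median turned from -1.05 to 0.034 and 0.013, Cdc45 to 0.477 and 0.420, Hp to 0.088 and 0.032, Saa3 to 0.224 and 0.171, Areg to 0.266 and 0.211, Inhba to 0.454 and 0.400, Hsd11b2 to 0.256 and 0.206, and Clec4d to 0.011 on all spots. At 4-fold, 334 genes were higher and 283 lower. The tubular injury median was -1.53 in the authors' value table, the MHC class II median 2.80 for genes above background on both arrays and 1.90 with no filter, and the endothelial median 1.41 as the mean over probes. Median scaling turned the balance of counts to 1295 higher and 1411 lower. With each probe's own signal in place of the bound, 1793 were higher and 1320 lower. Under the alternatives other than normexp, 0 of the named genes and list medians past 2-fold changed sign. Each value rests on 1 array a group, and dim probes carry the least precision. The causes were not tested.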
